A study of Arabidopsis thaliana with 72 samples.

Results

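UGT73B1 (AT4G34138), UGT73B2 (AT4G34135), UGT73B3 (AT4G34131), UGT73B4 (AT2G15490), UGT73B5 (AT2G15480) and UGT73C5 (AT2G36800) are 6 glycosyltransferase genes of Arabidopsis thaliana, and their rows were taken by identifier from a count table of 27655 genes in 72 RNA-seq libraries. All 6 were found, and all 6 were among the 21042 genes with enough reads to be tested. The genes were singled out with results of these libraries known, and which values led to the choice is not recorded, so the values and calls are given as a description and without p-values. The libraries were made from whole seedlings, 10 days old, grown in liquid Murashige and Skoog (MS) medium, to which N-hydroxy-pipecolic acid (NHP, 0.5 mM) or MS medium alone (mock) was added, and which were collected after 15 min, 30 min, 3 h or 6 h. The genotypes were sid2-2, which lacks functional ICS1, an enzyme of salicylic acid (SA) synthesis, then fmo1-1, which lacks FMO1, the enzyme that makes NHP, and wild-type Col-0. Each of the 24 groups of genotype, treatment and time held 3 libraries, each from the pooled seedlings of 1 well, and each mutant was represented by 1 allele.

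UDP-dependent glycosyltransferases (UGTs) move a sugar from a UDP-sugar onto a small molecule, which usually makes it more soluble, less reactive and ready for storage in the vacuole. Enzymes of the UGT73 group act on flavonols, brassinosteroids, fungal toxins and man-made chemicals, and several of their genes are known to respond to SA, oxidative stress and xenobiotics. UGT73B3 and UGT73B5 are required for full resistance of leaves to Pseudomonas syringae, UGT73B2 can glucosylate flavonols, UGT73B4 conjugates breakdown products of the explosive trinitrotoluene, and UGT73C5 glucosylates brassinosteroids and the Fusarium toxin deoxynivalenol.

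In the RefSeq annotation of the TAIR10.1 assembly, UGT73B1, UGT73B2 and UGT73B3 stood side by side on the minus strand of chromosome 4, at 16347997 to 16350203, 16345150 to 16347434 and 16343057 to 16344818. UGT73B4 (6761635 to 6763500) and UGT73B5 (6758430 to 6763501) were on the plus strand of chromosome 2, and UGT73C5 (15423172 to 15425129) was on its minus strand among other UGT73C genes. The coding sequences of UGT73B4 and UGT73B5 were identical at 92.3% of aligned bases and those of UGT73B2 and UGT73B3 at 89.7%, while UGT73C5 shared 63.0% to 67.3% with the UGT73B genes. A long annotated UGT73B5 transcript ran through the whole of UGT73B4 on the same strand, and 12.6% of the stretches of 100 bases in UGT73B4 were also found in UGT73B5, so reads could be split between these neighbours in a way that is not given in the sources used here. UGT73B1 overlapped AT4G34139 on the opposite strand over 1015 bases, and without a stated use of strand its reads cannot be told apart from those of that gene.

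The 300 bases before the annotated gene start were compared because TGA factors, which act with SA signaling, bind TGACG, and WRKY factors bind TTGAC followed by C or T. TGACG, read on either strand, was found before 5 of the 6 genes, against 21.3% of 27443 windows of the same length over the genome, and it occurred more than once before UGT73B1, UGT73B3 and UGT73B4, against 4.0% of windows. UGT73B2 held no TGACG but held 3 copies of TTGACC or TTGACT, where 7.9% of windows held 2 or more. UGT73B4 and UGT73B5 held 1 copy each, so that 3 of the 6 genes had this motif pair, against 32.3% of windows. CACGTG, the G-box, was found before UGT73B4 and before none of the other 5 genes, against 7.1% of windows. The windows of UGT73B3, called with NHP in all 3 genotypes in the fit to the 72 libraries, of UGT73B4, with the widest change, and of UGT73B2, which lacks TGACG, are printed from TAIR10.1 in the direction of transcription, with TGACG or its reverse complement CGTCA in capitals (UGT73B3, chr4:16344819-16345118, minus strand; UGT73B4, chr2:6761335-6761634, plus strand, within an intron of the long UGT73B5 transcript; UGT73B2, chr4:16347435-16347734, minus strand). No capitals appear in the UGT73B2 window.
UGT73B3: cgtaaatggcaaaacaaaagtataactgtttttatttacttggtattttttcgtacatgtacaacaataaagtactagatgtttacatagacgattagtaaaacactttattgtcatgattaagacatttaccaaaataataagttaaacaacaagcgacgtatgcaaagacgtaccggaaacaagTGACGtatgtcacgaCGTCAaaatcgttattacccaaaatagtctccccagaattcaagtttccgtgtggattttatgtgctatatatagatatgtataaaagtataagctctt
UGT73B4: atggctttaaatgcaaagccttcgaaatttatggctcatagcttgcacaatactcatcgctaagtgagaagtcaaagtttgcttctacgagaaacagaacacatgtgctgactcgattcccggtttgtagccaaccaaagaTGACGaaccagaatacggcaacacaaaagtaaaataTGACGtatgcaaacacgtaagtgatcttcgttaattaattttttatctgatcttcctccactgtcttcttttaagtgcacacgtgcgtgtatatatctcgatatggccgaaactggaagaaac
UGT73B2: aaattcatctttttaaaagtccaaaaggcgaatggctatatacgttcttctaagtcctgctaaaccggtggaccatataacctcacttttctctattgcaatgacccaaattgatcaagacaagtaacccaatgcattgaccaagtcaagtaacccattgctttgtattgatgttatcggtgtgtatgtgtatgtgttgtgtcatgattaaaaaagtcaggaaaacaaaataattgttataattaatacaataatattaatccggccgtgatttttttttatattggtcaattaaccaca
The run gacgtatgcaaa was present before both UGT73B3, where it began 143 bases before the start, and UGT73B4, and it was in 2 of the 27443 windows. These matches describe letters in the windows only.

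The libraries held 19618319 to 28382977 assigned reads, with a median of 23373939.5, and the lowest count of any of the 6 genes in any library was 48 reads, for UGT73B4. ICS1 had 0.433 to 1.52 CPM (read counts scaled to a common library size) in sid2-2 libraries, against 7.36 to 13.1 CPM in Col-0 libraries, and FMO1 had 0.0419 to 0.500 CPM in fmo1-1 libraries, against 1.77 to 4.57 CPM in Col-0 libraries. CPM are on the scale of the fit, in which each library total is multiplied by its TMM factor (0.893 to 1.10). The factors of sid2-2 mock libraries were lower than those of Col-0 mock libraries by 0.13 on the log2 scale on average, so CPM of the plain library totals would be lower in sid2-2 by that amount for every gene. Shoot and root markers, 5 of each, were above 0 in every library, with lowest levels of 171 CPM for a shoot marker and 2.74 CPM for a root marker. Library 3 of sid2-2 with NHP at 30 min is titled 30 min but carries the label 180 min and was grouped by its title. The study's table of libraries numbers batches for Col-0 and sid2-2 and does not say what a batch was. NHP and mock libraries of the same genotype came from different batches at every time except 6 h in Col-0, where batch 8 held both. Within Col-0 before 6 h, and within sid2-2 at every time, treatment and batch cannot be told apart. No batch is given for fmo1-1. In sid2-2 mock at 15 min, libraries 2 and 3 differed by more than any other pair of replicates did, with a chi-square per degree of freedom of 14.5 against a median of 4.30 over 72 pairs. The other pairs of this group had 6.59 (libraries 1 and 3) and 5.73 (libraries 1 and 2), so this measure does not single out library 2.

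The levels of the 6 genes covered a wide range. Per kb of exon, the median over the 72 libraries was 28.8 CPM per kb for UGT73B1, 19.0 for UGT73C5, 13.9 for UGT73B2, 10.2 for UGT73B3, 8.80 for UGT73B5 and 4.54 for UGT73B4. UGT73B1 was above each of the other UGT73B genes in all 72 libraries and above UGT73C5 in 59. UGT73B4 was below UGT73B5 in 62 libraries and below UGT73B3 in 68, whereas UGT73B2 and UGT73B3 were less clearly ordered, with UGT73B2 higher in 48. The highest CPM was 11.8 times the lowest for UGT73B4, 10.6 times for UGT73C5, 8.02 times for UGT73B2, 4.88 times for UGT73B3, 3.11 times for UGT73B1 and 2.96 times for UGT73B5. The highest values of UGT73C5 (189 CPM) and UGT73B4 (25.3 CPM) were both from library 2 of sid2-2 mock at 15 min, and the next highest were 123 CPM for UGT73C5 and 24.4 CPM for UGT73B4.

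**Figure D1:**
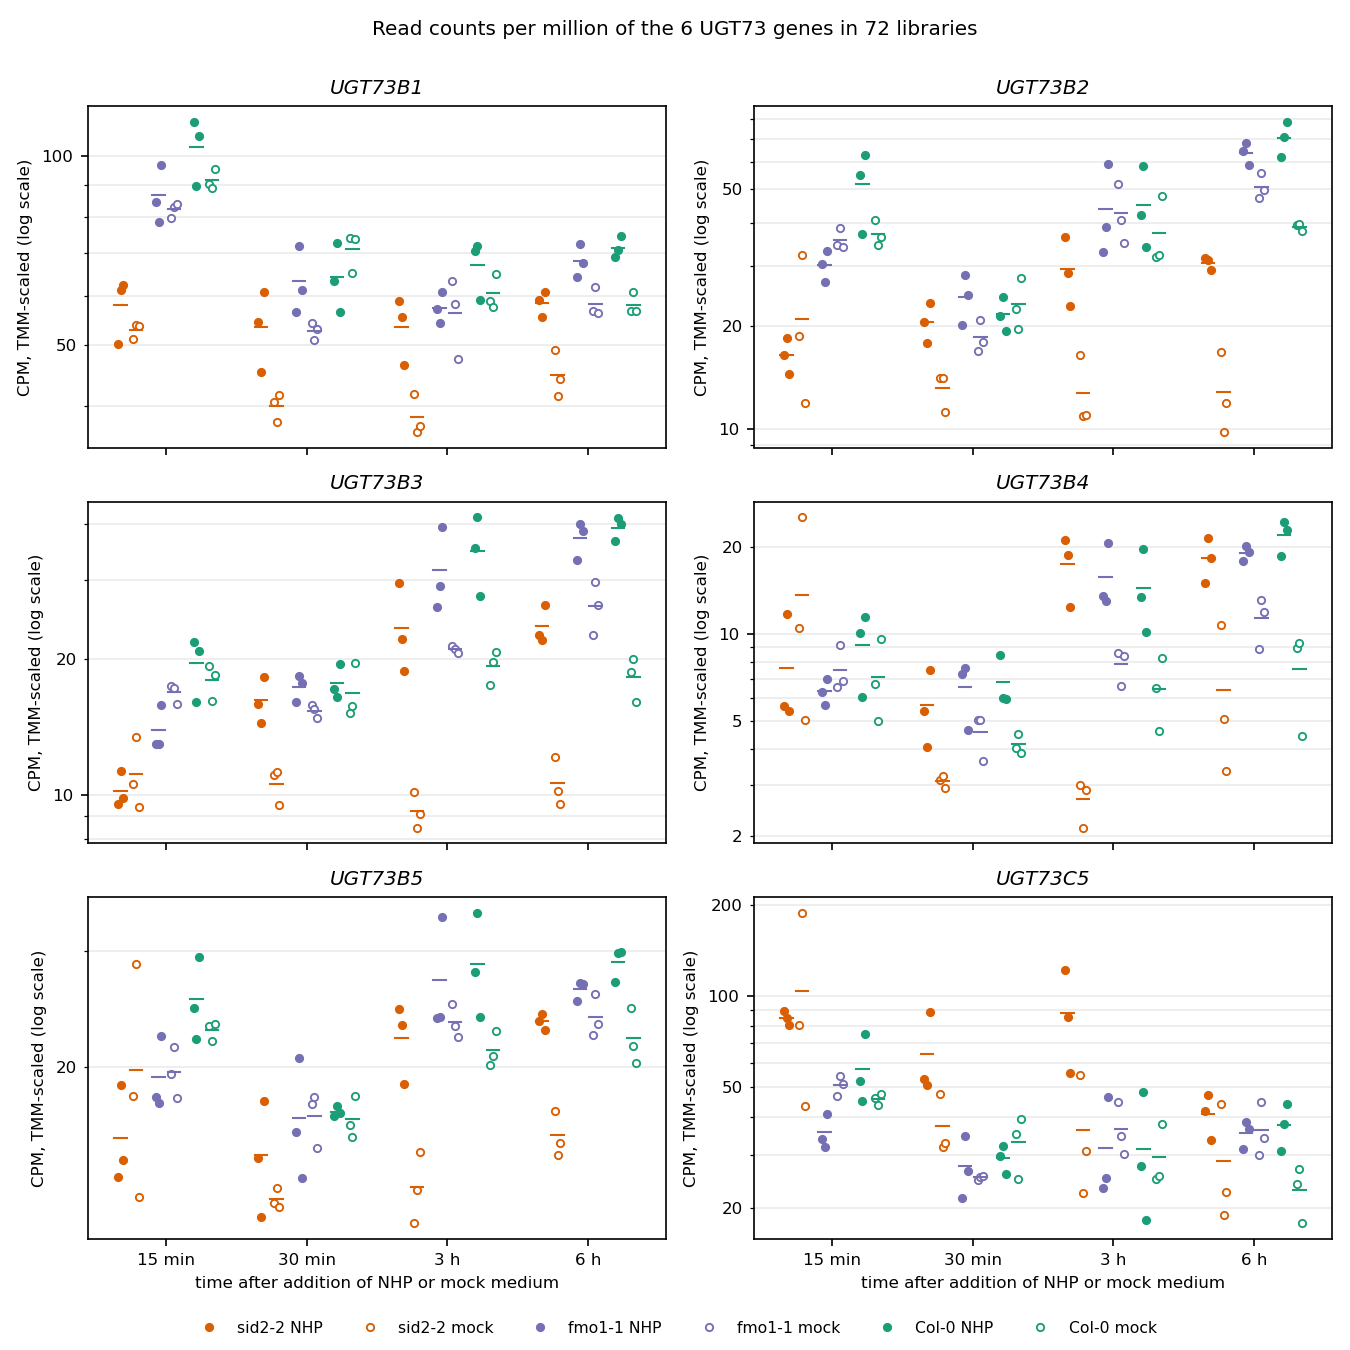
TMM-scaled CPM on a log scale for each of the 6 genes in all 72 libraries, by time, with sid2-2, fmo1-1 and Col-0 from left to right and NHP (filled) left of mock (open). Points are libraries and short lines are means of 3. UGT73B4 in sid2-2 at 3 h shows the widest gap between NHP and mock, and sid2-2 mock points of UGT73B1, UGT73B2 and UGT73B3 lie below those of Col-0 at each time.

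The first question was whether the transcripts responded to NHP in each genotype. A gene was called at a time point when its adjusted p in edgeR's quasi-likelihood test, over all 21042 genes of 1 fit to the 72 libraries, was under 0.05. Of the 72 pairs of gene and comparison, 19 were called, each higher with NHP, whereas 2.28% of all pairs over all genes were called higher. Of the 19, 13 were in sid2-2, 4 in Col-0 and 2 in fmo1-1. In this fit none of the 6 genes was called at 15 min, where 2.45% of all genes were called higher in sid2-2, 1.29% in fmo1-1 and 0.917% in Col-0. Without library 3 of sid2-2 mock, UGT73B4 (−1.21, against −0.80 with it) and UGT73B5 (−0.57, against −0.32) were called lower with NHP in sid2-2. The mock libraries then left included library 2, which held the highest UGT73B4 value of all 72 libraries. All 6 rose in sid2-2 at 3 h, where 5.79% of all genes rose, and 5 of 6 rose at 6 h, where 4.94% did. At 30 min 2 of 6 were called in sid2-2 and none in fmo1-1 or Col-0, where 0.699%, 0.946% and 0.779% of all genes rose. In fmo1-1, UGT73B3 was called at 3 h and at 6 h and the other 5 genes at neither time, with 2.16% and 2.64% of all genes called higher. In Col-0, 1 of 6 rose at 3 h and 3 of 6 at 6 h, against 1.69% and 3.03% of all genes.

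Which pairs were called depended on the tool. DESeq2, fitted to the 6 libraries of each comparison alone, called 31 of the 72 pairs, where 4.03% of all pairs over all genes were called. In sid2-2 it also called UGT73B2 (0.65) and UGT73B4 (0.87) at 30 min, and it did not call UGT73C5 at 3 h (1.30). In fmo1-1 it also called UGT73B4 at 3 h (1.01), UGT73B1 (0.23), UGT73B2 (0.33) and UGT73B4 (0.76) at 6 h, and UGT73C5 as lower at 15 min (−0.52). In Col-0 it also called UGT73B4 at 30 min (0.72), UGT73B4 (1.16) and UGT73B5 (0.44) at 3 h, and UGT73B1 (0.30), UGT73B5 (0.39) and UGT73C5 (0.72) at 6 h. The calls given next are those of the fit to the 72 libraries.

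UGT73B3 was called in all 3 genotypes, as UGT73B1, UGT73B2 and UGT73B4 also were by DESeq2. In sid2-2 at 3 h it had 29.5, 22.2 and 18.8 CPM with NHP, against 10.2, 8.47 and 9.08 CPM in mock. In fmo1-1 at 3 h it had 26.1, 29.2 and 39.3 CPM with NHP, against 21.4, 21.1 and 20.7 CPM in mock. In Col-0 at 3 h it had 35.3, 41.3 and 27.6 CPM with NHP, against 17.6, 19.7 and 20.8 CPM in mock. In each genotype every NHP library was above every mock library, with a log2 fold change of 1.34 ± 0.155 (SE of the fit to the 72 libraries, n = 3 in each group) in sid2-2, 0.58 ± 0.137 in fmo1-1 and 0.84 ± 0.138 in Col-0. At 6 h the log2 fold change was 1.15 ± 0.150 in sid2-2, 0.50 ± 0.133 in fmo1-1 and 1.10 ± 0.137 in Col-0. The fmo1-1 calls rested on single libraries: without NHP library 3 the change at 3 h was 0.39, and without mock library 1, NHP library 2 or NHP library 3 that at 6 h was 0.41, 0.45 or 0.48, and none of these passed the threshold. In sid2-2 UGT73B3 had already risen at 30 min, with 15.9, 14.5 and 18.3 CPM in NHP libraries, against 11.1, 11.3 and 9.50 CPM in mock libraries. This change of 0.61 ± 0.160 stood beside a rise of UGT73B1 of 0.42 ± 0.105. Neither call was firm: both were lost without mock library 1 (0.64 and 0.43 for UGT73B3 and UGT73B1), mock library 2 (0.65 and 0.38), NHP library 1 (0.62 and 0.40) or the NHP library with conflicting labels (0.52 and 0.32), and that of UGT73B3 also without mock library 3 (0.53).

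UGT73B2, the flavonol glucosyltransferase gene next to UGT73B3, rose in sid2-2 at 3 h and 6 h and in Col-0 at 6 h. At 3 h it had 36.2, 28.5 and 22.9 CPM in sid2-2 with NHP, against 16.5, 10.9 and 11 CPM in sid2-2 mock, with no overlap and a log2 fold change of 1.18 ± 0.250. At 6 h it had 31.6, 31.1 and 29.1 CPM in sid2-2 with NHP, against 16.8, 9.81 and 11.9 CPM in sid2-2 mock. In Col-0 at 6 h it had 62.2, 71.2 and 78.7 CPM with NHP, against 39.5, 39.5 and 37.8 CPM in mock. The groups did not overlap in either genotype, and the log2 fold changes were 1.25 ± 0.246 in sid2-2 and 0.86 ± 0.213 in Col-0. In fmo1-1 at 6 h it had 64.7, 68.3 and 58.8 CPM with NHP, against 47.2, 55.8 and 49.8 CPM in mock, and the change of 0.33 ± 0.209 did not pass. UGT73B1, the most abundant of the 6, moved least among the genes of this cluster, with changes in sid2-2 of 0.48 ± 0.105 at 3 h and 0.38 ± 0.102 at 6 h. Without mock library 2 the change at 6 h was 0.32 and did not pass. In Col-0 at 6 h UGT73B1 had 69.0, 70.7 and 74.7 CPM with NHP, against 56.7, 60.7 and 56.7 CPM in mock, a change of 0.30 ± 0.0997 that did not pass the threshold.

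UGT73B4 showed the widest change of any of the 6 genes. In sid2-2 at 3 h it had 21.1, 18.8 and 12.4 CPM with NHP, against 3.01, 2.14 and 2.88 CPM in mock, a log2 fold change of 2.67 ± 0.404. In Col-0 at 3 h it had 13.4, 19.6 and 10.2 CPM with NHP, against 6.53, 4.61 and 8.28 CPM in mock, and the change of 1.15 ± 0.354 did not pass the threshold, though it did without NHP library 3 (1.33). The NHP libraries of sid2-2 and Col-0 thus overlapped at 3 h, while the sid2-2 mock libraries were below all Col-0 mock libraries. At 6 h UGT73B4 rose in both, with 15.1, 21.6 and 18.3 CPM in sid2-2 NHP libraries, against 10.7, 5.08 and 3.36 CPM in sid2-2 mock libraries. In Col-0 at 6 h it had 18.6, 24.4 and 22.9 CPM with NHP, against 8.92, 9.28 and 4.43 CPM in mock. The log2 fold changes at 6 h were 1.52 ± 0.351 in sid2-2 and 1.54 ± 0.338 in Col-0. In fmo1-1, where UGT73B4 was called by DESeq2 and not in the fit to the 72 libraries, the changes were 1.00 ± 0.344 at 3 h and 0.75 ± 0.324 at 6 h.

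UGT73B5, the partner of UGT73B4 on chromosome 2, passed the threshold in sid2-2, and by DESeq2 also in Col-0, and the difference of its response between genotypes did not pass at any time. At 3 h it had 24.5, 23.2 and 18.9 CPM in sid2-2 with NHP, against 11.6, 13.0 and 14.8 CPM in sid2-2 mock, a change of 0.76 ± 0.172. At 6 h its change in sid2-2 was 0.57 ± 0.165, and it was 0.53, 0.55 or 0.56 and no longer called without mock library 2, mock library 3 or NHP library 2. UGT73C5, the deoxynivalenol glucosyltransferase gene, was called once, in sid2-2 at 3 h. It had 123, 85.6 and 55.8 CPM with NHP, against 54.9, 22.4 and 30.9 CPM in mock, a change of 1.28 ± 0.346. The lowest NHP library was close to the highest mock library, and the call was lost without NHP library 1 (0.96) or mock library 2 (1.03).

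**Figure D2:**
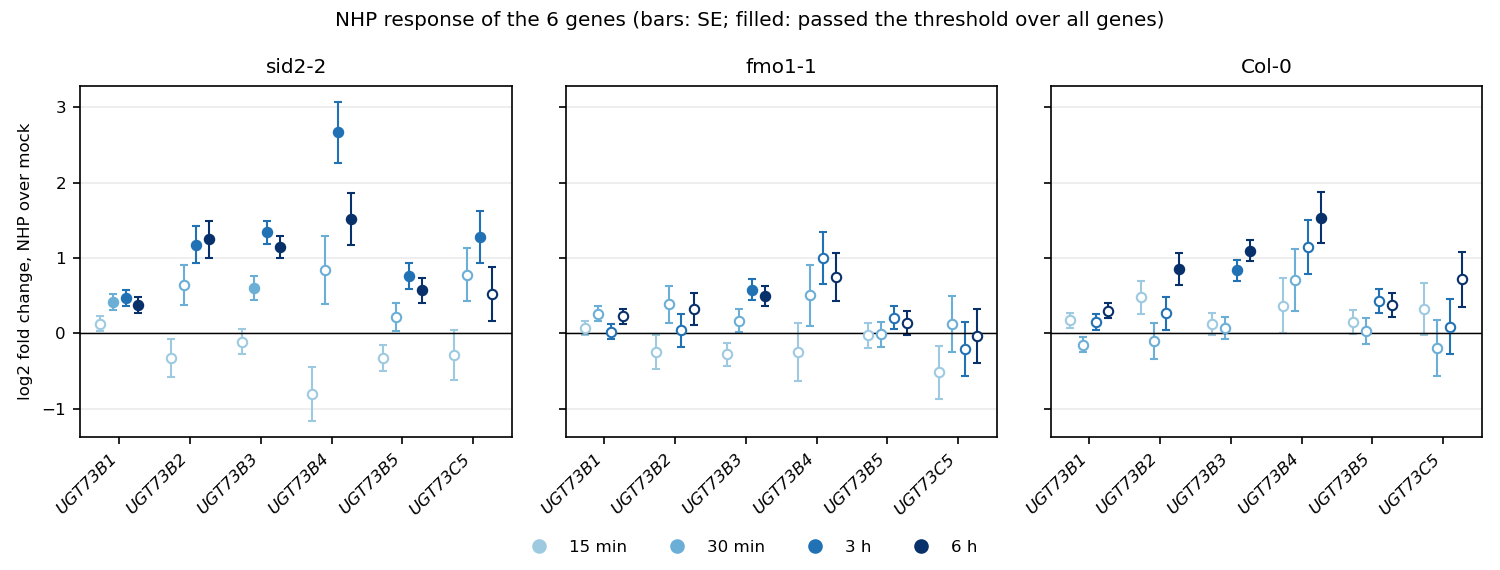
Log2 fold change of NHP over mock for the 6 genes in sid2-2, fmo1-1 and Col-0, with the 4 times from early to late, left to right, for each gene. Bars are SE of the fit to the 72 libraries, with 3 libraries in each group, and filled points passed the threshold over all genes. All 6 points at 3 h in sid2-2 are filled, 1 in fmo1-1 and 1 in Col-0.

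At 6 h the batch number could be entered as a term in a joint fit of sid2-2 and Col-0. In sid2-2 all mock libraries were of batch 8 and all NHP libraries of batch 9. The step between these 2 batches was therefore estimated from the Col-0 NHP libraries alone, of batches 8, 9 and 9, and carried over to sid2-2. In that fit, UGT73B3 stayed called in both genotypes. The changes of UGT73B1, UGT73B2, UGT73B4 and UGT73B5 in sid2-2 were 0.32 ± 0.109, 1.00 ± 0.254, 1.2 ± 0.611 and 0.44 ± 0.129. Those of UGT73B2 and UGT73B4 in Col-0 were 0.71 ± 0.238 and 2.05 ± 0.674, and none of these 6 passed the threshold. In this fit of 12 libraries 1.50% of all pairs of gene and comparison were called in either direction. It called 293 genes in sid2-2 and 324 in Col-0, against 2280 and 1417 in the fit to the 72 libraries with RLE factors. The part of batch in the lost calls was not tested.

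The next question was whether the response itself differed between genotypes, which was read from the difference of the log2 fold changes. None of the 24 differences between sid2-2 and Col-0 passed the threshold, where 0.858% of all pairs of gene and comparison did, and none of the 24 between fmo1-1 and Col-0 did, where 0.0463% did. The Col-0 libraries are shared by both sets of differences. The largest estimate was that of UGT73B4 at 3 h, where the response in sid2-2 exceeded that in Col-0 by 1.52 on the log2 scale, with a 95% interval of 0.42 to 2.63. The difference for UGT73C5 at 3 h was 1.19, with an interval of 0.18 to 2.2, and that for UGT73B2 was 0.91, with an interval of 0.25 to 1.58. These intervals are not adjusted for the choice among 24 differences, and none of these differences passed the threshold over all genes. At 15 min all 6 differences were below 0 for sid2-2, with a median of −0.54, and for fmo1-1, with a median of −0.51. Without library 2 of sid2-2 mock at 15 min, the sid2-2 difference was 0.13 for UGT73C5, against −0.61 with it, and −0.39 for UGT73B4, against −1.17 with it. In sid2-2 all 6 were above 0 at 30 min and at 3 h, with medians of 0.55 and 0.71, and at 6 h the median was 0.06. In fmo1-1 all 6 were below 0 at 3 h and 6 h, with medians of −0.22 and −0.56. The difference of UGT73B1 in sid2-2 at 30 min, 0.57 ± 0.145, passed when NHP library 2 of sid2-2 (0.67) or NHP library 2 of Col-0 (0.66) was left out.

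Without NHP, the levels in the mutants were set against those of Col-0 in mock libraries of the same time. These libraries also form the denominator of the NHP response, so the mock differences are not independent of it. In sid2-2, 17 of 24 pairs of gene and time were called, 15 lower and 2 higher, whereas over all genes 13.8% of pairs were lower and 17.4% were higher. UGT73B1, UGT73B2 and UGT73B3, the neighbours on chromosome 4, were lower at all 4 times, and in each of these 12 comparisons every sid2-2 library was below every Col-0 library, which held for 19.8% of all genes in the 15 min libraries, 20.0% in those of 30 min, 21.6% in those of 3 h and 18.0% in those of 6 h. UGT73B2 at 3 h had 16.5, 10.9 and 11 CPM in sid2-2 mock, against 31.9, 32.1 and 47.7 CPM in Col-0 mock. At 6 h it had 16.8, 9.81 and 11.9 CPM in sid2-2 mock, against 39.5, 39.5 and 37.8 CPM in Col-0 mock. These differences, −1.53 ± 0.244 and −1.60 ± 0.243, were the widest of the 24. At 15 min and 30 min UGT73B2 differed by −0.85 ± 0.233 and −0.82 ± 0.254, and these calls were lost without sid2-2 library 3 at 15 min (−0.56, against −1.27 and called without library 2), and at 30 min without sid2-2 library 3 (−0.71) or Col-0 library 3 (−0.67). UGT73B3 differed by −0.70 ± 0.155 in the 15 min libraries, −0.67 ± 0.158 at 30 min, −1.06 ± 0.157 after 3 h and −0.78 ± 0.154 at 6 h. UGT73B1 differed by −0.79, −0.83, −0.65 and −0.37 at the same times, with SE of 0.10 to 0.104.

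UGT73B5 was lower in sid2-2 mock libraries at 3 h (−0.69 ± 0.171) and 6 h (−0.49 ± 0.166), and the call at 6 h was lost without Col-0 library 1 (−0.42), sid2-2 library 2 (−0.45) or sid2-2 library 3 (−0.47). UGT73B4 was lower at 3 h (−1.25 ± 0.442), a call that was lost without Col-0 library 3 (−1.04) or sid2-2 library 2 (−1.11). At 15 min UGT73B4 and UGT73C5 were instead called higher in sid2-2. UGT73C5 had 80.2, 189 and 43.5 CPM in sid2-2 mock, against 46.1, 43.8 and 47.7 CPM in Col-0 mock, and UGT73B4 had 10.5, 25.3 and 5.03 CPM in sid2-2 mock, against 6.73, 5.00 and 9.58 CPM in Col-0 mock. In both genes the groups overlapped and library 2 of sid2-2 was the highest. Without it the log2 difference was 0.43 for UGT73C5, against 1.17 ± 0.340 with it, and 0.12 for UGT73B4, against 0.90 ± 0.357 with it, and neither was called, while UGT73B5 was then called lower (−0.56). The UGT73B4 call at 15 min was also lost without Col-0 library 1 (0.85) or library 2 (0.69).

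The summed CPM of 5 shoot marker genes also moved with the genotype, being 19486.5 to 28247.8 in the 12 sid2-2 mock libraries, against 13227.3 to 19430.9 in the 12 Col-0 mock libraries. That of 5 root markers was 3494.7 to 4732.21 in sid2-2 mock libraries and 3671.87 to 4848.21 in Col-0 mock libraries. The strongest root marker had at least 3366 CPM in each of the 72 libraries. The median over the 5 root markers of the lowest level in any library was 7.78 CPM. The root sums therefore mostly follow the strongest marker and say little about the other root markers. The part of the shoot and root markers in the lower levels of the UGT73B genes was not tested. In whole seedlings fewer cells of a type and less RNA per cell cannot be told apart. Mock libraries of sid2-2 and Col-0 came from the same batch at 15 min and from different batches at 30 min and 3 h. At 6 h the Col-0 mock libraries were of batches 7, 7 and 8 and those of sid2-2 all of batch 8. The part of batch in the mock differences was not tested at 30 min or 3 h, where genotype and batch cannot be told apart.

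**Figure D3:**
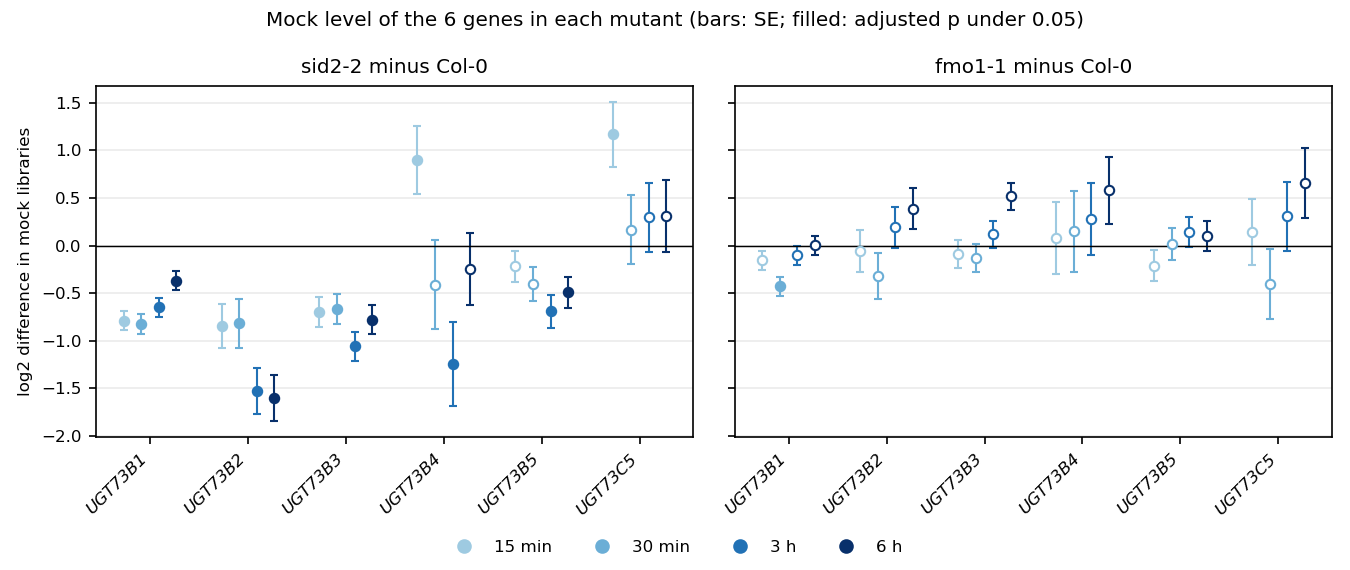
Log2 difference in mock libraries, sid2-2 minus Col-0 (left) and fmo1-1 minus Col-0 (right), for the 6 genes, with the 4 times from early to late, left to right, for each gene. Bars are SE and filled points have an adjusted p under 0.05. In sid2-2, 17 points are filled, 15 of them below 0, and in fmo1-1 the filled point is UGT73B1 at 30 min.

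In fmo1-1 mock libraries 1 of 24 pairs was called, where 0.250% of all pairs over all genes were. UGT73B1 at 30 min had 54.4, 51.0 and 53.0 CPM in fmo1-1, against 74.1, 65.2 and 73.9 CPM in Col-0, a difference of −0.43 ± 0.10. The call was lost without any of 5 libraries, namely fmo1-1 library 1 (−0.45), 2 (−0.40) or 3 (−0.43) and Col-0 library 1 or 3 (−0.40 each). At 6 h UGT73B3 had 22.6, 29.7 and 26.4 CPM in fmo1-1, against 18.8, 20.0 and 16.1 CPM in Col-0, a difference of 0.52 ± 0.140 that did not pass.

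Genes next to the UGT73B1 to UGT73B3 cluster were set beside it in sid2-2 mock libraries, with no test of the comparison. Among the 8 genes on each side, chosen after the values of the cluster were seen, 13 of 16 could be tested, and 1 to 3 of them were lower and 3 to 5 higher depending on the time, with medians of 0.02 to 0.08. The nearest tested gene beyond UGT73B1, AT4G34140, was among the lower ones at each time (−0.42, −0.38, −0.38 and −0.63). All 3 UGT73B genes of the cluster were lower at each time. Around UGT73B4 and UGT73B5, 8 of the 16 neighbours could be tested, and at 3 h 1 of them was lower and 1 higher, with a median of −0.04, while both UGT73B genes were lower. At 15 min UGT73B4 was called higher and UGT73B5 was not called, neither was called at 30 min, and at 6 h UGT73B5 was called lower and UGT73B4 was not called. Next to UGT73C5, which was not called at 3 h, the other UGT73C genes went both ways: UGT73C2, AT2G36770 and AT2G36780 were lower in sid2-2 at 3 h (−2.02, −1.44 and −1.75) and UGT73C6 was higher (2.31).

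**Figure D4:**
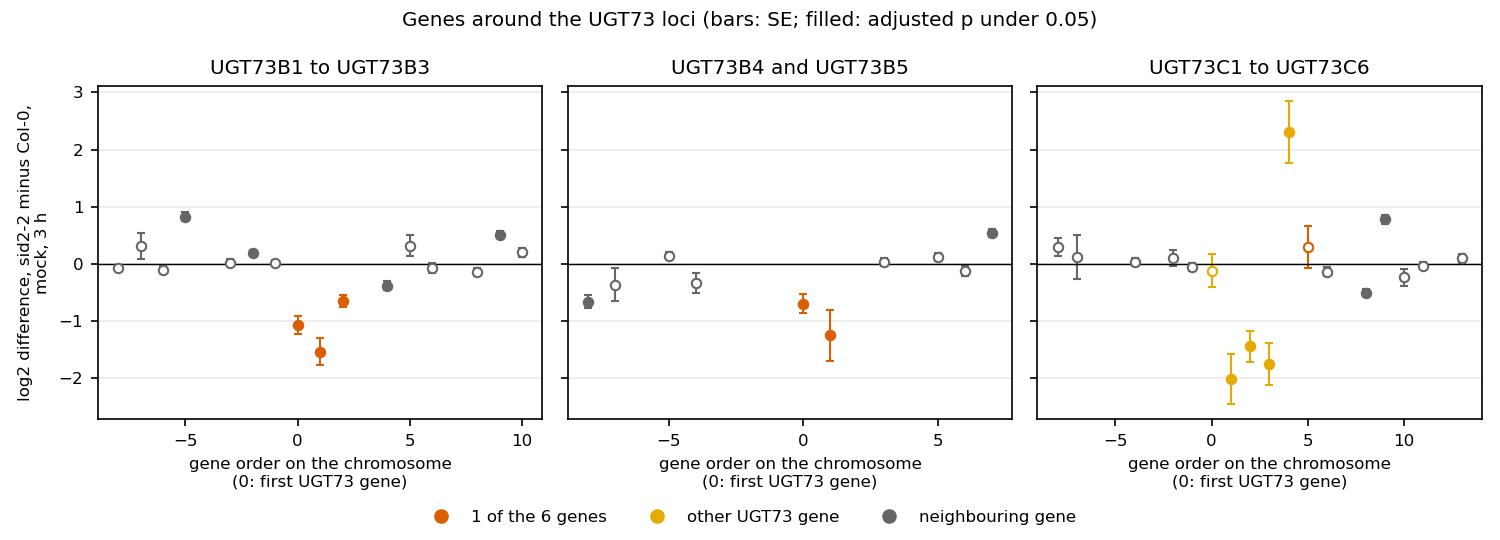
Log2 difference between sid2-2 and Col-0 in mock libraries at 3 h for genes in chromosome order around the 3 UGT73 loci, counted from the first UGT73 gene of each locus. Bars are SE and filled points have an adjusted p under 0.05. The UGT73B genes lie from −0.65 to −1.53, whereas the median of the tested neighbours is 0.02 around UGT73B1 to UGT73B3 and −0.04 around UGT73B4 and UGT73B5.

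Under NHP, the levels reached by UGT73B3 and UGT73C5 in sid2-2 and Col-0 were read side by side without a test. Those of the other members are not given here. UGT73B3 at 3 h had 29.5, 22.2 and 18.8 CPM in sid2-2 with NHP, against 35.3, 41.3 and 27.6 CPM in Col-0 with NHP, so that the libraries overlapped. At 6 h it had 22.7, 22.1 and 26.3 CPM in sid2-2 with NHP, against 36.6, 41.2 and 39.9 CPM in Col-0 with NHP. UGT73C5 at 3 h lay the other way, with 123, 85.6 and 55.8 CPM in sid2-2 with NHP, against 27.6, 48.3 and 18.2 CPM in Col-0 with NHP. At 6 h the means of UGT73C5 with NHP were 40.9 CPM in sid2-2 and 37.7 CPM in Col-0, and the libraries overlapped.

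In mock libraries the levels of the 6 genes were also compared between successive times after the medium was added. The mock libraries of sid2-2 and Col-0 came from a different batch or batches at each time, so that time and batch cannot be told apart, and no batch is given for fmo1-1. Of 54 pairs of gene and step in time, 13 were called, 5 higher and 8 lower, a share near the 19.0% of all pairs over all genes that were called in either direction. The steps are therefore given as values and not as a trait of the 6 genes. From 15 to 30 min all 6 estimates were below 0 in each of the 3 genotypes. UGT73B1 fell in all of them, by 0.40 on the log2 scale in sid2-2, 0.64 in fmo1-1 and 0.36 in Col-0, where 8.64%, 5.09% and 6.40% of all genes fell. UGT73B2 fell by 0.94 in fmo1-1 and by 0.67 in Col-0, and UGT73B4 fell by 2.07 in sid2-2, or by 1.30 and still called without library 2 at 15 min. UGT73B5 and UGT73C5 were called in sid2-2 (−0.63 and −1.47), and both calls were lost without library 2 at 15 min (−0.28 and −0.73). Without Col-0 library 2 at 30 min the step of UGT73B1 in Col-0 was −0.31 and not called, and that of UGT73B2 in Col-0 was lost without any of 5 libraries (−0.57 to −0.72).

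From 30 min to 3 h UGT73B2 rose by 1.2 ± 0.231 in fmo1-1, with 51.9, 40.8 and 35.0 CPM at 3 h and 16.9, 20.8 and 18.0 CPM at 30 min, and by 0.68 ± 0.229 in Col-0. The Col-0 step was lost without library 1 (0.66) or 2 (0.58) at 30 min or library 3 at 3 h (0.46). UGT73B3 and UGT73B5 rose in fmo1-1 by 0.45 ± 0.146 and 0.47 ± 0.164, and both calls were lost without library 3 at 30 min (0.43 and 0.40), that of UGT73B5 also without library 1 (0.42) or 2 (0.48) at 3 h. None of the 6 genes rose in sid2-2 in this interval, where 15.0% of all genes did, against 13.1% in fmo1-1 and 13.3% in Col-0. From 3 to 6 h 1 step was called, that of UGT73B4 in sid2-2 (1.22 ± 0.446), where 9.63% of all genes rose, and it was lost without any 1 of the 3 h libraries (1.08 to 1.31) or library 1 at 6 h (0.63).

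Over the 24 group means of log2 CPM, UGT73B2 and UGT73B5 ran most closely together, with a Pearson correlation of 0.924, and the correlations of UGT73B2 with UGT73B3 (0.881), UGT73B3 with UGT73B5 (0.874) and UGT73B4 with UGT73B5 (0.843) were also high. UGT73C5 stood apart, with correlations of −0.20 to 0.218 with the other 5 genes. The 24 groups share genotypes, times and batches, and the correlations are a description. Among all tested genes outside the family, those most like UGT73B2 were AT4G19880 (0.951), PMAT1 (0.939), which encodes a malonyltransferase for phenolic glucosides, and GSTU1 (0.931), a glutathione transferase. UGT73B5 was most like NDA2 (0.945), a mitochondrial NADH dehydrogenase, PMAT1 (0.944) and WRKY6 (0.931). UGT73B3 was most like WAK1 (0.930), a wall-associated kinase, and UGT73B4 was most like AT2G41380 (0.930) and SIB1 (0.923), a sigma factor binding protein. UGT73C5 was most like RHL41 (0.916), a zinc finger factor also called ZAT12, and WRKY33 (0.855), and UGT73B1 was most like AT3G20340 (0.929).

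Of the UGT73 genes outside the 6, 7 were in the table and all 7 were tested. With NHP at 3 h, 4 of 7 rose in sid2-2, with a median of 1.07, 1 of 7 in fmo1-1, with a median of 0.26, and 1 of 7 in Col-0, with a median of 0.18, while the medians of all genes were within 0.02 of 0. Of all genes, 5.79%, 2.16% and 1.69% rose in these 3 genotypes. UGT73D1 rose in all 3, by 1.74 ± 0.234 in sid2-2, 1.06 ± 0.202 in fmo1-1 and 0.98 ± 0.198 in Col-0. UGT73C6, which glucosylates flavonols and brassinosteroids, rose in sid2-2 by 1.70 ± 0.421. For AT2G36770 the response at 3 h was higher in sid2-2 than in Col-0 by 1.33 ± 0.362, and this difference passed the threshold, where 0.456% of all genes did so upward.

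A list of 19 genes of xenobiotic detoxification, among them glutathione transferases, cytochromes P450, transporters and UGT74E2, was set beside the 6 genes. The list was also chosen with earlier results of these data known. At 3 h 17 of 19 rose in sid2-2, with a median of 1.26, against 0 of 19 in fmo1-1 and 1 of 19 in Col-0. Of all genes, 5.79% rose in sid2-2 at that time, 2.16% in fmo1-1 and 1.69% in Col-0. At 6 h 8 rose in sid2-2, 4 in fmo1-1 and 9 in Col-0, against 4.94%, 2.64% and 3.03% of all genes. In sid2-2 at 3 h UGT74E2, which glucosylates indole-butyric acid, rose by 2.14 ± 0.621 and GSTU1, the glutathione transferase most like UGT73B2, by 1.39 ± 0.207. The response at 3 h was higher in sid2-2 than in Col-0 for 5 of the 19, which were GSTU2 (1.73), CYP81D11 (1.62), DTX1 (1.32), GSTU1 (1.11) and GSTU7 (0.64). Of all genes, 0.456% passed upward in this comparison. In sid2-2 mock libraries at 3 h 11 of 19 were lower and 1 was higher than in Col-0 mock libraries, with CYP81D11 at −4.40 ± 0.304 and AT2G04050 at 2.68 ± 0.563. At 15 min 8 were lower and 7 were higher. Over all genes and the 4 times, 13.8% of mock pairs were lower in sid2-2 and 17.4% were higher.

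Of 4 glucosyltransferase genes of SA and NHP, 0, 2, 3 and 2 were called higher with NHP from the earliest to the latest time in sid2-2, 0, 2, 2 and 2 in fmo1-1 and 0, 1, 2 and 3 in Col-0, and none was called lower. The share of all genes called higher in these comparisons was 0.699% to 5.79%. UGT76B1, which glucosylates SA and NHP, rose in all 3 genotypes, by 0.74 in sid2-2, 0.78 in fmo1-1 and 1.04 in Col-0 at 30 min. UGT74F2, which makes SA glucose ester, rose by 0.65 in sid2-2, 0.53 in fmo1-1 and 0.45 in Col-0 at 3 h, with SE of 0.0714 to 0.0740. UGT75B1 was called in sid2-2 at 3 h (0.69 ± 0.221) and in Col-0 at 6 h (0.79 ± 0.194), while its estimates at 3 h were −0.14 ± 0.195 in fmo1-1 and −0.22 ± 0.193 in Col-0, and UGT74F1 was not called with NHP at any time. Of 7 regulators of the xenobiotic response, 2 rose in Col-0 at 15 min, where 0.917% of all genes did. They were the NAC factors ATAF2 (0.81 ± 0.146) and NAC102 (0.55 ± 0.105), whose other comparisons are not given here. SCL14, TGA2, TGA5 and TGA6 were not called with NHP at any time in any genotype. In the same fit none of the 6 UGT73 genes was called in Col-0 at 15 min, and an order of these changes was not tested.

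**Figure D5:**
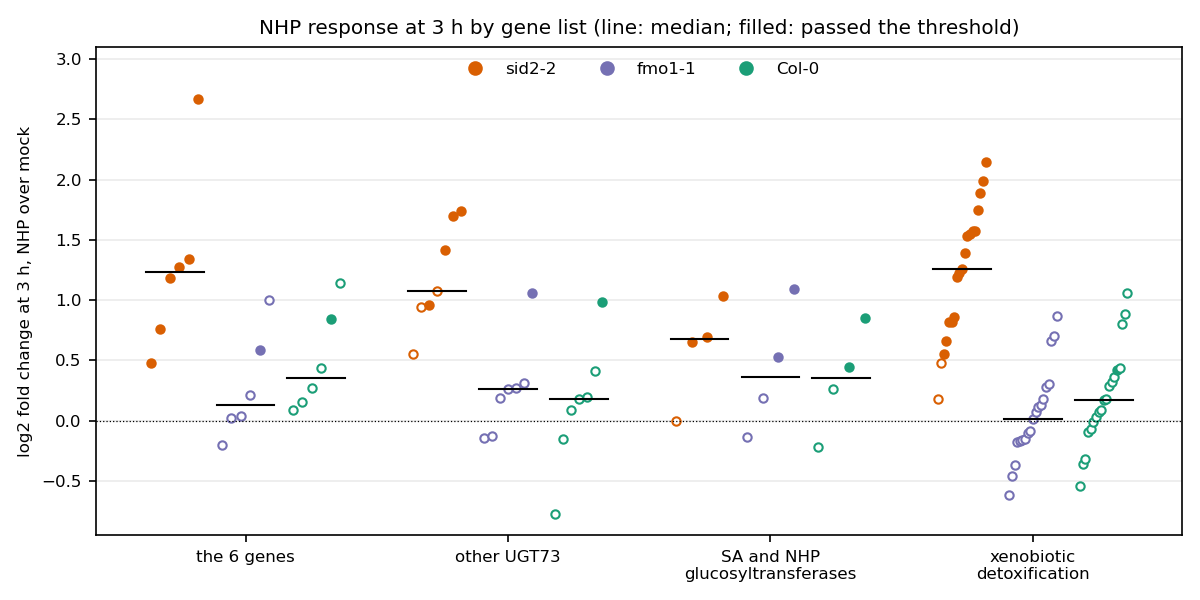
Log2 fold change of NHP over mock at 3 h for the 6 genes, 7 other UGT73 genes, 4 glucosyltransferases of SA and NHP, and 19 genes of xenobiotic detoxification, in sid2-2, fmo1-1 and Col-0 from left to right within each list. Points are genes, black lines are medians and filled points passed the threshold over all genes. The medians of the 6 genes are 1.23 in sid2-2, 0.13 in fmo1-1 and 0.35 in Col-0.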

How the data were processed

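Per the labels and the study's methods, polyadenylated RNA of whole seedlings was made into libraries with the NEBNext Ultra II kit, and the authors assessed the reads with FastQC, trimmed them in CLC Genomics Workbench 11.0.2 and mapped them to TAIR10. The deposited values are raw read counts per gene and library, and how reads were counted, with which annotation, and how strand and reads with several matches were treated is not given in the sources used here. The 6 members and all gene lists were chosen with earlier results of these data known. Named genes were the members, list genes by size of change among those called, and the 3 genes most correlated with each member. AT2G36770, AT2G36780 and the neighbouring genes are named by identifier or counted because they adjoin a member.

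The model across all genes was edgeR 4.0.16 under R 4.3.3 (TMM scaling, filterByExpr with minimum counts of 10 and 15 in total, robust quasi-likelihood test, 24 groups, 48 residual degrees of freedom, prior count 2). P-values were adjusted by Benjamini-Hochberg over 21042 genes and called under 0.05. CPM are counts divided by the TMM-scaled library total, the scale of the fit. Depth was 19618319 to 28382977 reads. SE is the size of the log2 fold change divided by the square root of the test's F statistic, so it draws on the spread over all 24 groups. Intervals at 95% were made from this SE and the t distribution with 48 degrees of freedom, with wells as the replicates. The script was tested on simulated data. Alternatives were RLE factors, no filter, a replicate block, 48 libraries without fmo1-1, a batch term at 6 h, DESeq2 1.42.0 and each library left out. Gene models and windows came from RefSeq on TAIR10.1 and were read with Biopython 1.88, whereas the files use TAIR10, so coordinates are of TAIR10.1 only. All 6 members were matched.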

Additional observations from a re-analysis of the deposited data

How the results depend on the processing

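With RLE factors every call was kept. DESeq2 on the 6 libraries of each comparison called 31 of 72 NHP responses, where 4.03% of all pairs were called, against 19 in the fit of 72 libraries, and DESeq2 on the 72 libraries called 1 difference of response in sid2-2, that of UGT73B1 at 30 min, against 0. Without the filter on low counts no mock difference in fmo1-1 was called (0 of 24), and UGT73B4 in sid2-2 mock at 15 min (0.90), UGT73B2 from 15 to 30 min in Col-0 (−0.67) and UGT73B4 from 3 to 6 h in sid2-2 (1.21) lost their calls, and the cause was not tested. Leaving out 1 library at a time, with the dispersion trend of the full fit kept, gave 17 to 21 NHP responses, 0 to 1 differences of response in sid2-2 and 0 to 0 in fmo1-1, 16 to 17 mock differences in sid2-2, 0 to 1 in fmo1-1 and 11 to 14 steps in time. Of 1620 values from these fits 55 lost a call, 8 gained one and none changed sign while called. The 48 libraries without fmo1-1 gave 132 values, of which 4 lost their call, among them UGT73B4 in sid2-2 mock at 15 min and 3 h, and the batch term at 6 h, applied to mock differences after seeing the data, changed 6 of 24, all of them NHP responses. Replicate numbers did not pair the wells: the correlation of deviations between same-numbered libraries ran from −0.0792 to 0.105 over 36 pairs, with 1 above 0.1. The replicate block gave 19, 0, 0, 16, 1 and 13 calls in the same order of results and lost 1 call, UGT73B4 in sid2-2 mock at 15 min (0.86). Depth limits UGT73B4 most, as it had as few as 48 reads.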
